A study of Homo sapiens with 12 samples.

Results

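The amino acid response and aminoacyl-tRNA synthetase genes described here are 34 genes listed by symbol, and each was found once among the 58735 genes of the deposited expression table. They comprise 8 transcription factors and regulators of the response, 4 genes of translation and mTORC1 control, and 9 metabolic, secreted or surface products. The remainder are 12 cytosolic synthetases and the tRNA exporter XPOT. A gene was tested where its mean reached 0.5 FPKM (fragments per kilobase of transcript, scaled to library depth) in at least 1 group, and 32 of the 34 passed. ASNS and NUPR1 did not pass, and VLDLR passed only through the groups given Mix.

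RNA was sequenced from HaCaT, an established keratinocyte line of human skin that grows without limit, here in DMEM with serum, in 12 libraries that form 4 groups of 3. The groups were PHGDH-siRNA+Mix, PHGDH-siRNA, Control-siRNA+Mix and Control-siRNA. The siRNA was directed against PHGDH, the enzyme that opens serine synthesis from a glycolytic intermediate, or was a control, and Mix was given for 24 h. The labels do not say what Mix contains, which siRNA sequences were used, or whether the 3 libraries of a group are separate cultures. P-values therefore speak only of the spread from library to library, which may be technical.

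The libraries held 16403845 to 20901128 reads as recovered from the FPKM values. PHGDH stood at 11.5 to 19.1 FPKM in PHGDH-siRNA+Mix and 16.9 to 23.7 FPKM in PHGDH-siRNA, against 26.6 to 31.9 FPKM in Control-siRNA+Mix and 36.5 to 56.2 FPKM in Control-siRNA, with no overlap between siRNA arms (log2 fold change -1.01, adjusted p = 0.200 with Mix and -1.14, adjusted p = 0.128 without, limma). The 8 keratinocyte markers summed to 1480 to 6596 FPKM per library, whereas the 6 fibroblast markers summed to at most 2.10, the 5 melanocyte markers to at most 0.797 and the 5 endothelial markers to at most 0.934 FPKM, with TYR and KDR at 0 throughout. Replicate 2 of PHGDH-siRNA+Mix and replicate 2 of PHGDH-siRNA stood apart from the other libraries in the same genes, so the counts of calls among these genes are given with and without them.

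Cells that run short of an amino acid accumulate uncharged tRNA, which activates the kinase GCN2. GCN2 and its sister kinases phosphorylate eIF2, which lowers general translation but raises translation of the mRNA of the transcription factor ATF4. ATF4, usually with a C/EBP partner, then raises genes for amino acid synthesis and uptake, for charging tRNA and for feedback on the response, and serine is among the amino acids whose shortage can start it.

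ATF4 and C/EBP proteins are known to bind composite elements with the core TGATGNAA, so promoters were searched for it on both strands, from 250 bases before to 50 bases after each annotated start (RefSeq, GRCh38.p14). Of the 34 genes, 28 had a promoter window, and 11 of these (39.3%) held the core, against 1217 of 27305 genes with a window in all (4.46%). By role, it was in 7 of 10 synthetases, 0 of 1 for XPOT, 2 of 7 products and 2 of 7 regulators. Of the genes of translation and mTORC1 control it was in 0 of 3. Many of these genes are known as ATF4 targets from such elements, so the share describes the choice of genes. A match is a run of letters and not a measured binding site. The sequences below surround the core, in capitals, in the 5 genes with a core that were lowest in the replicate 2 libraries, in ASNS, where the element was characterised, and in NARS, which holds a core and was not low there. The cores lie at -209 in CHAC1, -187 in AARS, -33 in GARS, -4 in MARS, -2 in CARS, -68 in ASNS and 15 in NARS, counted from the annotated start as position 1 to the first letter in capitals.
CHAC1 (chr15:40953236-40953295, plus strand, core on the other strand): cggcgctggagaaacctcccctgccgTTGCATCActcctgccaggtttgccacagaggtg
AARS (chr16:70289660-70289719, minus strand, core on the other strand): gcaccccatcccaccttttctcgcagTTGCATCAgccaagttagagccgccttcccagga
GARS (chr7:30594819-30594878, plus strand, core on the other strand): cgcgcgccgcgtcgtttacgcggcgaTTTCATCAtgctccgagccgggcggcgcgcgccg
MARS (chr12:57488038-57488097, plus strand, core on the other strand): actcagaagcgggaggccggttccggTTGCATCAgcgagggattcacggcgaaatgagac
CARS (chr11:3057394-3057451, minus strand, core on the other strand): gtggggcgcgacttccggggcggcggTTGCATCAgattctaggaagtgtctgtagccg
ASNS (chr7:97872443-97872502, minus strand, core as printed): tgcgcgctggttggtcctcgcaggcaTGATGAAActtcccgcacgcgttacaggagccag
NARS (chr18:57621807-57621848, minus strand, core as printed): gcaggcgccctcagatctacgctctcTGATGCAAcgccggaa

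The widest variation of these genes lay between replicate libraries of the PHGDH-siRNA arm. In 21 of the 32 tested genes replicate 1 was highest, replicate 3 intermediate and replicate 2 lowest in both PHGDH-siRNA+Mix and PHGDH-siRNA (65.6%, against 20.5% of the 14577 genes tested in all). Replicate 2 was the lowest library of both groups for 24 of 32 genes, against 33.7% of all genes, and of both control-siRNA groups for 0 of 32, against 8.68% of all genes. In both PHGDH-siRNA groups it lay more than 1 log2 unit below the mean of replicates 1 and 3 of its group for 12 genes. That is 37.5% of the 32, against 2.24% of all genes. It lay above by that much for 0 genes, against 1.97% of all genes. Replicate 1 was the highest library for the 21 genes counted above, so this distance also holds the height of replicate 1. All these counts are descriptions of single libraries, with no test.

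**Figure D1:**
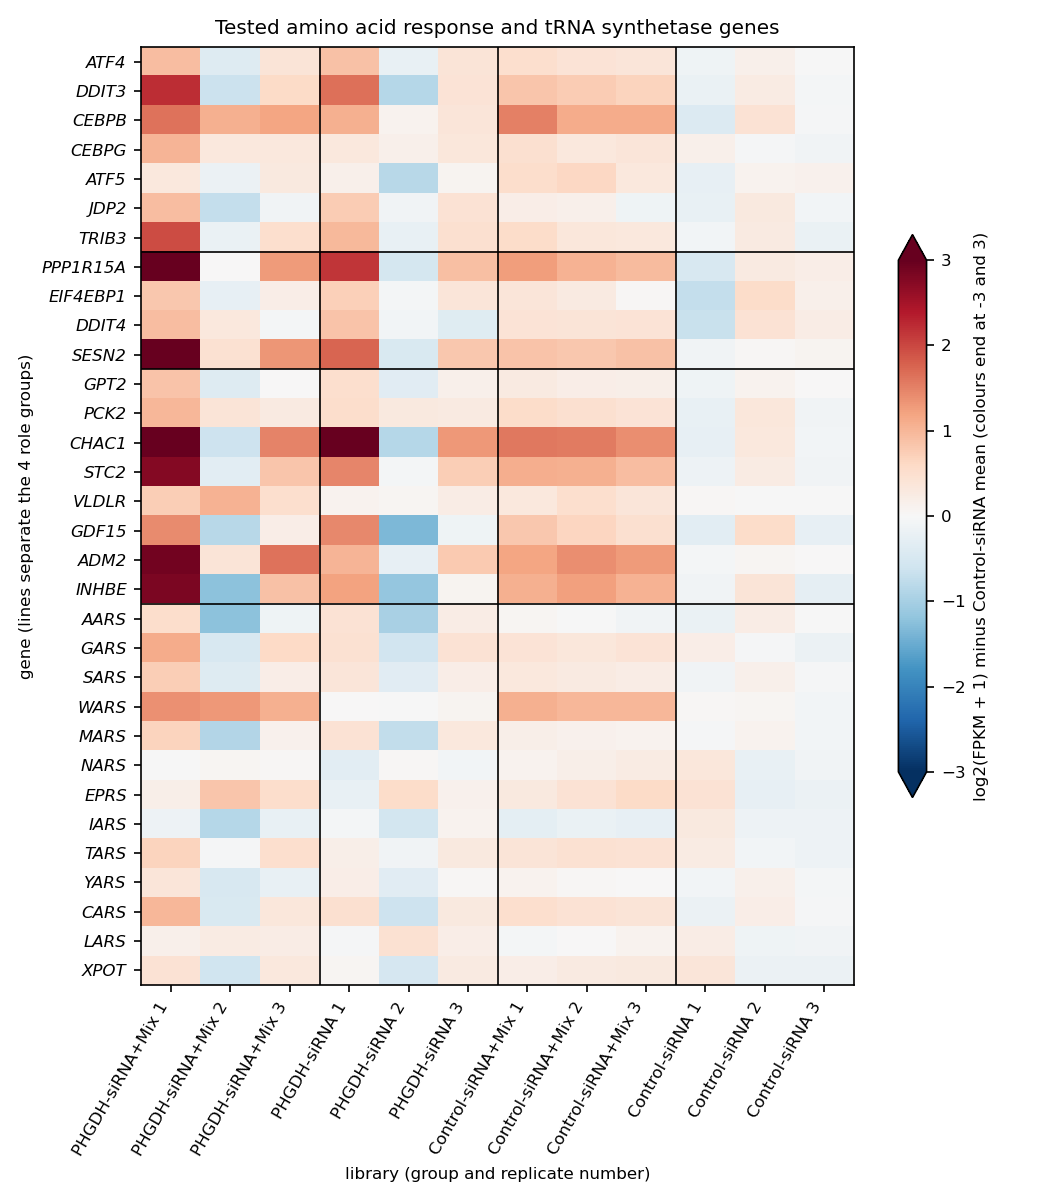
Level of the 32 tested genes (rows, in 4 role groups) in the 12 libraries (columns), as the difference of log2(FPKM + 1) from the Control-siRNA mean of the same gene. Replicate 1 of both PHGDH-siRNA groups is red for most rows and replicate 2 pale or blue, whereas the 3 Control-siRNA+Mix libraries look alike.

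The median difference of the 32 genes from their Control-siRNA mean was 0.93, -0.28 and 0.33 log2 units in replicates 1, 2 and 3 of PHGDH-siRNA+Mix and 0.49, -0.29 and 0.28 in those of PHGDH-siRNA. In Control-siRNA+Mix it was 0.45, 0.42 and 0.38, and in Control-siRNA -0.11, 0.15 and -0.08. The range of the PHGDH-siRNA libraries therefore enclosed both control groups, and the libraries given Mix under control siRNA lay close together. Over all genes tested, the same median lay between -0.01 and 0.01 in every library. The keratinocyte markers went mostly the other way. Replicate 2 stood above its neighbours by a median of 0.73 log2 units in PHGDH-siRNA+Mix and 1.23 in PHGDH-siRNA. Of the 8 markers, 3 were more than 1 log2 unit higher there in both groups, against 1.97% of all genes. In both groups 1 of the 8 was lowest there. The highest sums were 6596 FPKM in PHGDH-siRNA+Mix and 5860 FPKM in PHGDH-siRNA, against 3531 FPKM in Control-siRNA+Mix and 2018 FPKM in Control-siRNA. CD14, a co-receptor for bacterial lipopolysaccharide and the one leukocyte marker high enough to be tested, was lowest in replicate 2 of both PHGDH-siRNA groups. It lay 1.18 log2 units below its neighbours there in PHGDH-siRNA+Mix and 1.56 in PHGDH-siRNA, but did not follow the full replicate order in both. It averaged 1.22 ± 0.908 FPKM in PHGDH-siRNA+Mix, 1.45 ± 1.3 in PHGDH-siRNA, 2.27 ± 0.489 in Control-siRNA+Mix and 1.47 ± 0.255 in Control-siRNA (SD, n = 3 each), while PTPRC, the marker common to leukocytes, was at 0 throughout. The part of these markers in the pattern was not tested. A lower level in bulk RNA cannot tell fewer expressing cells from less RNA per cell.

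**Figure D2:**
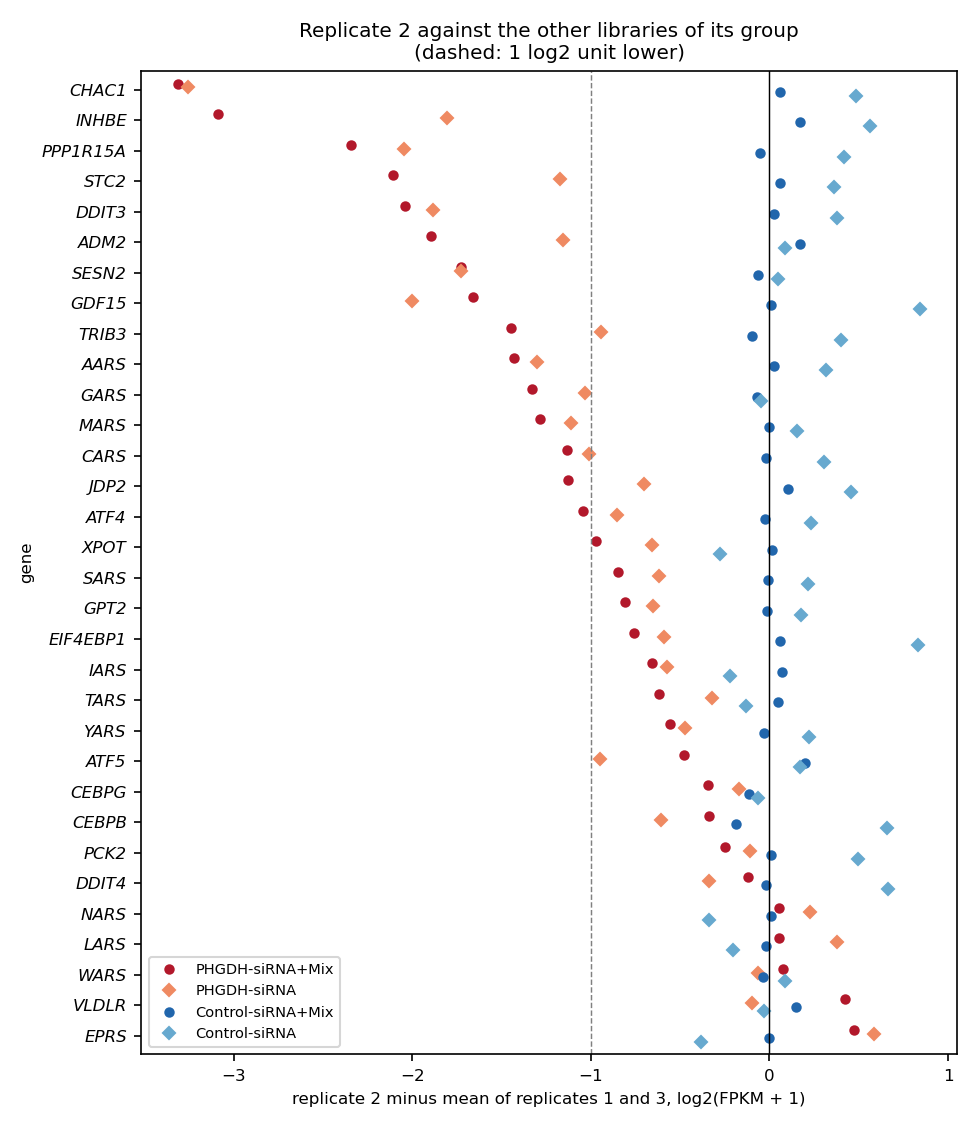
Replicate 2 minus the mean of replicates 1 and 3 of its group, in log2(FPKM + 1), for the 32 tested genes (rows, sorted by PHGDH-siRNA+Mix) in the 4 groups (colours). CHAC1 stands lowest at -3.31 and -3.26 in the PHGDH-siRNA groups with and without Mix, and 12 genes lie left of the dashed line at -1 in both, while the control groups lie between -0.38 and 0.84.

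Among the regulators, ATF4, the transcription factor at the head of the response, held 281, 113 and 194 FPKM in PHGDH-siRNA+Mix and 271, 126 and 192 FPKM in PHGDH-siRNA. Its levels were 209, 197 and 192 FPKM in Control-siRNA+Mix and 134, 165 and 146 FPKM in Control-siRNA. Replicate 1 of both PHGDH-siRNA groups lay above every control library and replicate 2 below every one. The 2.50-fold and 2.15-fold spans within the PHGDH-siRNA groups exceeded the 1.34-fold ratio of the Control-siRNA+Mix and Control-siRNA means.

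DDIT3 (CHOP), a C/EBP family factor raised by ATF4, followed the same order with wider spans: 49.5, 5.91 and 15.0 FPKM in PHGDH-siRNA+Mix and 32.9, 4.98 and 13.3 FPKM in PHGDH-siRNA, against 18.1, 17.4 and 16.2 FPKM in Control-siRNA+Mix and 8.40, 11.9 and 9.44 FPKM in Control-siRNA. Both replicate 2 libraries lay below all control libraries. DDIT3 shares 27.2% of its exon bases with MARS on the opposite strand, and the sources used here do not state whether counting used strand. TRIB3, a pseudokinase that feeds back on ATF4 and CHOP, stood at 156, 33.7 and 56.1 FPKM in PHGDH-siRNA+Mix and 77.9, 33.6 and 55.2 FPKM in PHGDH-siRNA, against 48.7 to 57.6 FPKM in Control-siRNA+Mix and 34.1 to 47.4 FPKM in Control-siRNA. JDP2, an AP-1 family repressor, spanned 2.92 to 11.3 FPKM in PHGDH-siRNA+Mix and 5.00 to 9.90 FPKM in PHGDH-siRNA, with replicate 2 lowest in both.

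CEBPB, a C/EBP partner that is also an inflammatory factor in keratinocytes, had the same replicate order but a smaller drop in replicate 2. It held 238, 161 and 175 FPKM in PHGDH-siRNA+Mix, 162, 82.4 and 98.5 FPKM in PHGDH-siRNA, 220, 168 and 167 FPKM in Control-siRNA+Mix and 57.4, 104 and 74.9 FPKM in Control-siRNA. Every Control-siRNA+Mix library lay above every Control-siRNA library, and replicate 2 of the PHGDH-siRNA groups was lower than its neighbours by only 0.34 log2 units with Mix and 0.61 without. CEBPG, the dimer partner through which ATF4 binds many targets, stayed at 8.52 to 14.5 FPKM in PHGDH-siRNA+Mix and 7.54 to 8.63 FPKM in PHGDH-siRNA, against 8.44 to 9.63 FPKM in Control-siRNA+Mix and 6.08 to 7.47 FPKM in Control-siRNA. ATF5, a sister factor with a similarly regulated mRNA, was at 2.77 to 7.28 FPKM over the PHGDH-siRNA arm and at 4.65 to 9.23 FPKM over the control arm; 21.2% of its exon bases overlap NUP62 on the opposite strand.

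NUPR1, a small stress-induced chromatin protein, was near the limit of detection. It had 6, 1 and 8 reads in PHGDH-siRNA+Mix and 35, 12 and 28 in PHGDH-siRNA, against 2, 10 and 3 in Control-siRNA+Mix and 20, 36 and 36 in Control-siRNA. Within each siRNA arm every library with Mix had fewer reads than every library without it. In the control arm 21 of the 32 tested genes had the opposite order. Its means were 0.0467 ± 0.0340 FPKM in PHGDH-siRNA+Mix, 0.249 ± 0.132 in PHGDH-siRNA, 0.0480 ± 0.0417 in Control-siRNA+Mix and 0.295 ± 0.0871 in Control-siRNA (SD, n = 3 each), and it was not tested.

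The genes of translation and mTORC1 control were as uneven. PPP1R15A (GADD34), which directs the phosphatase that reverses eIF2 phosphorylation, held 158, 13.9 and 34.8 FPKM in PHGDH-siRNA+Mix and 64.4, 9.28 and 26.5 FPKM in PHGDH-siRNA. Its control levels were 34, 29.5 and 27.7 FPKM in Control-siRNA+Mix and 9.61, 16.9 and 15.9 FPKM in Control-siRNA. Replicate 1 of both PHGDH-siRNA groups lay above every control library, while replicate 2 with Mix lay below every Control-siRNA+Mix library and replicate 2 without Mix below every control library.

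SESN2, a sestrin that holds mTORC1 down when leucine is short, stood at 82.4, 13.1 and 25.0 FPKM in PHGDH-siRNA+Mix and 33.8, 6.58 and 17.1 FPKM in PHGDH-siRNA, against 17.7, 17 and 17.9 FPKM in Control-siRNA+Mix and 8.54, 9.57 and 9.95 FPKM in Control-siRNA. The control groups did not overlap and each spanned at most 1.16-fold, whereas the PHGDH-siRNA groups spanned 6.30-fold and 5.13-fold. DDIT4 (REDD1), another mTORC1 inhibitor, did not follow the order: replicate 3 was its lowest library in both PHGDH-siRNA groups, at 196 FPKM with Mix and 160 FPKM without. Its replicate 1 levels there were 391 and 369 FPKM, against 130 to 279 FPKM over the 6 control libraries. EIF4EBP1, the repressor of cap-dependent initiation, lay at 134 to 278 FPKM in PHGDH-siRNA+Mix and 154 to 263 FPKM in PHGDH-siRNA, against 164 to 205 FPKM in Control-siRNA+Mix and 96.5 to 235 FPKM in Control-siRNA, and all 4 groups overlapped.

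Of the products, CHAC1, a glutathione-degrading enzyme, varied widely within the PHGDH-siRNA arm. It held 97.8, 3.33 and 17.7 FPKM in PHGDH-siRNA+Mix and 73.7, 2.68 and 15.6 FPKM in PHGDH-siRNA, spans of 29.3-fold and 27.5-fold. In the control arm it held 19.1, 18.6 and 16.7 FPKM with Mix and 4.63, 7.37 and 5.32 FPKM without. Replicate 3 of PHGDH-siRNA lay near the Control-siRNA+Mix libraries although it had received no Mix, and replicate 2 of PHGDH-siRNA+Mix lay below every Control-siRNA library although it had.

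INHBE, the activin and inhibin beta E subunit, had 18.4, 0.161 and 4.04 FPKM in PHGDH-siRNA+Mix and 5.31, 0.225 and 1.90 FPKM in PHGDH-siRNA. It had 4.74, 5.40 and 4.63 FPKM in Control-siRNA+Mix and 1.54, 2.56 and 1.28 FPKM in Control-siRNA. Its lowest library held 9 reads and its highest 1080. INHBE, MARS and DDIT3 lie near each other on chromosome 12. INHBE and MARS are 16164 bases apart, and MARS and DDIT3 overlap by 982 bases. All 3 were more than 1 log2 unit lower in both replicate 2 libraries. Whether other genes of the region were low there too was not tested.

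Stanniocalcin STC2, a secreted glycoprotein, was at 72.1, 7.71 and 18.2 FPKM in PHGDH-siRNA+Mix and 29.1, 9.37 and 17.1 FPKM in PHGDH-siRNA, against 19.6 to 22.0 FPKM in Control-siRNA+Mix and 8.83 to 11.8 FPKM in Control-siRNA. ADM2 (intermedin), a secreted peptide of the calcitonin family, had 11.5, 1.16 and 4.19 FPKM in PHGDH-siRNA+Mix and 2.40, 0.402 and 1.88 FPKM in PHGDH-siRNA, against 2.81 to 3.41 FPKM in Control-siRNA+Mix and 0.596 to 0.733 FPKM in Control-siRNA. In the control arm neither gene's groups overlapped, and the lowest library of both in the PHGDH-siRNA arm was replicate 2. GDF15, a stress cytokine, stood at 7.57, 0.777 and 2.67 FPKM in PHGDH-siRNA+Mix and 7.58, 0.250 and 1.93 FPKM in PHGDH-siRNA, a 30.4-fold span without Mix that was the widest of the 32 genes in that group. The lowest GDF15 library held 10 reads and the highest 307. Its control levels were 3.45 to 4.54 FPKM with Mix and 1.57 to 3.70 FPKM without.

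The metabolic enzymes varied less. GPT2, the mitochondrial alanine aminotransferase, was at 9.08 to 22.6 FPKM in PHGDH-siRNA+Mix and 9.46 to 17.5 FPKM in PHGDH-siRNA, against 13.8 to 14.8 FPKM in Control-siRNA+Mix and 11.1 to 13.3 FPKM in Control-siRNA. PCK2, the mitochondrial form of phosphoenolpyruvate carboxykinase, was at 21.1 to 35.6 FPKM in PHGDH-siRNA+Mix and 20.9 to 25.2 FPKM in PHGDH-siRNA, against 23.2 to 25.7 FPKM in Control-siRNA+Mix and 14.5 to 21.9 FPKM in Control-siRNA. ASNS, asparagine synthetase and the classical gene of the response, was almost absent from the table, with 59, 34 and 30 reads in PHGDH-siRNA+Mix, 31, 23 and 18 in PHGDH-siRNA, 27, 32 and 28 in Control-siRNA+Mix and 16, 34 and 23 in Control-siRNA. An annotated transcript on the same strand, AC079781.5, overlaps 44.6% of its exon bases and 96.1% of its coding bases and averaged 0.00510 FPKM. Reads that fall on both genes may be given to neither, depending on counting settings that the sources used here do not state, so the ASNS level is uncertain. VLDLR, a lipoprotein receptor that ATF4 is known to raise, stood at 0.920, 1.38 and 0.643 FPKM in PHGDH-siRNA+Mix and 0.239, 0.206 and 0.345 FPKM in PHGDH-siRNA, against 0.455, 0.635 and 0.501 FPKM in Control-siRNA+Mix and 0.196, 0.144 and 0.142 FPKM in Control-siRNA. It was the one product highest in replicate 2 of PHGDH-siRNA+Mix.

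**Figure D3:**
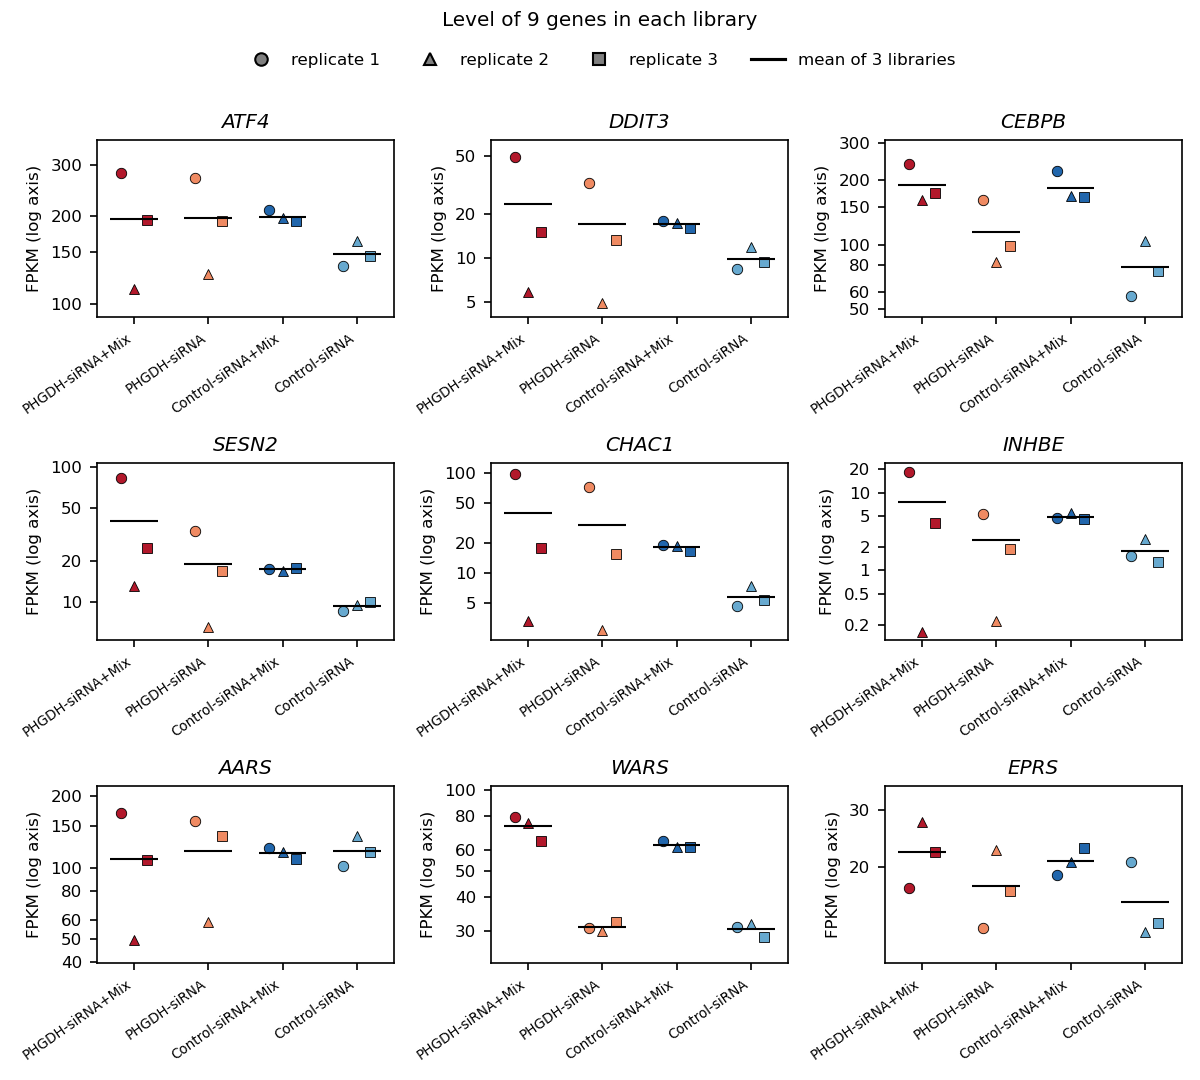
FPKM of 9 genes in each library, on log axes whose range differs between panels. Points are libraries, with the shape giving the replicate number, and black lines are means of 3 libraries. Replicate 2 (triangles) is lowest in both PHGDH-siRNA groups for ATF4, DDIT3, CEBPB, SESN2, CHAC1, INHBE and AARS, and highest in both for EPRS. WARS separates libraries with Mix (61.4 to 79.9 FPKM) from those without (28.5 to 32.3 FPKM).

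The synthetases, which charge tRNA with their amino acids, split into those that followed the replicate order and those that did not. AARS, for alanine, held 170, 49.6 and 108 FPKM in PHGDH-siRNA+Mix and 158, 58.8 and 136 FPKM in PHGDH-siRNA, against 121, 117 and 108 FPKM in Control-siRNA+Mix and 102, 136 and 116 FPKM in Control-siRNA. Replicate 2 of both PHGDH-siRNA groups lay below all 6 control libraries. GARS, MARS and CARS, for glycine, methionine and cysteine, were likewise more than 1 log2 unit lower in replicate 2 in both groups, at 32.6, 21.3 and 8.45 FPKM with Mix and 30.3, 23.7 and 7.45 FPKM without. SARS, which charges tRNA with serine, the product of the PHGDH pathway, stood at 96.5, 43.8 and 65.8 FPKM in PHGDH-siRNA+Mix and 74.2, 45.2 and 65.8 FPKM in PHGDH-siRNA, against 66.7 to 71.5 FPKM in Control-siRNA+Mix and 53.1 to 63.3 FPKM in Control-siRNA. Both PHGDH-siRNA groups overlapped each other and both control groups, whereas the control groups did not overlap with each other. SARS shared the order of AARS with a smaller span.

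IARS, TARS and YARS, for isoleucine, threonine and tyrosine, and XPOT, which exports tRNA from the nucleus, had replicate 2 lowest in both PHGDH-siRNA groups but by 0.32 to 0.97 log2 units. EPRS, which charges both glutamate and proline, ran the other way, at 17.2, 27.5 and 22.2 FPKM in PHGDH-siRNA+Mix and 12.8, 22.5 and 16.8 FPKM in PHGDH-siRNA. LARS and NARS, for leucine and asparagine, were within 0.38 log2 units of their neighbours in replicate 2, and WARS, for tryptophan, within 0.07. Among the 10 tested genes with a promoter core, 5 were more than 1 log2 unit lower in both replicate 2 libraries, against 6 of 17 with a window and no core. The cores of AARS, GARS, MARS and CARS and the core of NARS printed above therefore belong to genes that differed in this respect.

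PHGDH siRNA gave no call among these genes. Without Mix, PHGDH-siRNA against Control-siRNA called 0 of 32 (background 0.0412% of genes called), with 0 at an unadjusted p under 0.05, 0 by voom on recovered reads and a lowest adjusted p of 0.875 in limma. The median log2 fold change was 0.13 with 25 of 32 above 0, against a median of 0.01 over all genes. CEBPG and VLDLR were higher in every PHGDH-siRNA library than in every Control-siRNA library, 2 of 32 or 6.25%, near the 4.89% of all genes, and 0 were lower throughout (background 5.3%). With Mix, PHGDH-siRNA+Mix against Control-siRNA+Mix called 0 of 32 (background 0.0206%), with 1 at an unadjusted p under 0.05, VLDLR, and 0 by voom. The median was -0.02, with 15 of 32 above 0. VLDLR, WARS and LARS were higher without overlap (background 7.01%) and ATF5 and NARS lower (background 7.33%).

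For ATF4 the log2 fold change with PHGDH siRNA was -0.12 with Mix and 0.34 without, each with a standard error of 0.32. CHAC1 gave 0.07 with Mix and 1.31 without, with a standard error of 1.10, so differences of several fold in either direction were not detectable at this spread. Leaving out replicate 2 of both PHGDH-siRNA groups moved the median to 0.22 with Mix and 0.37 without, with 30 and 31 of 33 genes above 0, since ASNS then passed the level filter. It called 0 members in either comparison, with lowest adjusted p of 0.213 and 0.196, against 0.379% and 0.696% of all genes. Unadjusted p-values under 0.05 were then found for 4 genes with Mix (ADM2, GARS, SESN2 and TRIB3) and for 9 without (ADM2, ATF4, CEBPB, CHAC1, GARS, MARS, PPP1R15A, SESN2 and STC2), against 11.6% and 12.1% of all genes. The 4 with Mix are thus near the background. The libraries left out were the lowest of both PHGDH-siRNA groups for 24 of the 32 tested genes. Higher medians without them were thus built in, so these medians and counts do not test an effect of PHGDH siRNA. Leaving out replicate 1 of both instead, which was decided once these levels were known, moved the medians to -0.34 with Mix and 0.05 without, with 5 and 17 of 32 above 0. It called 0 members in either comparison (background 0.0135% and 0.00674%), with 4 and 1 at an unadjusted p under 0.05, against 6.76% and 7.21% of all genes. The direction with Mix thus depended on which library pair was left out.

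The most uniform difference among libraries was that with Mix under control siRNA. Control-siRNA+Mix against Control-siRNA had a median log2 fold change of 0.42, with 30 of 32 genes above 0, against 0.00 over all genes. In 21 of 32 genes (65.6%) every Control-siRNA+Mix library was above every Control-siRNA library, against 19.1% of all genes, and in IARS alone every one was below, against 18.7%. Yet the test called only WARS and CEBPB, 2 of 32 (6.25%, background 9.54%, of which 5.62% up). All 4 groups share 1 estimate of the spread in this test, the wide PHGDH-siRNA groups included.

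WARS rose to 62.5 ± 1.91 FPKM in Control-siRNA+Mix, against 30.4 ± 1.66 FPKM in Control-siRNA (SD, n = 3 each; log2 fold change 1.02, SE 0.11, adjusted p = 0.000171). CEBPB rose to 185 ± 30.5 FPKM in Control-siRNA+Mix, against 78.8 ± 23.7 FPKM in Control-siRNA (1.25, SE 0.28, adjusted p = 0.0178). The WARS call held under all 21 alternatives, with adjusted p between 0.000114 and 0.00211. That of CEBPB held under 15, with adjusted p between 0.00826 and 0.0810, and was lost without the filter on low values and without any 1 of the Control-siRNA+Mix libraries or replicates 1 or 3 of Control-siRNA.

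Other members stood apart between the control groups without passing the test. ADM2 averaged 3.09 ± 0.304 FPKM in Control-siRNA+Mix and 0.666 ± 0.0681 FPKM in Control-siRNA, 4.64-fold (log2 fold change of FPKM + 1 1.29, SE 0.51, adjusted p = 0.160). CHAC1 averaged 18.1 ± 1.29 FPKM in Control-siRNA+Mix and 5.77 ± 1.42 FPKM in Control-siRNA, 3.14-fold (1.52, SE 1.10, adjusted p = 0.496). INHBE, PPP1R15A, STC2, SESN2 and DDIT3 stood 2.74-fold, 2.15-fold, 2.12-fold, 1.88-fold and 1.74-fold higher, all without overlap and all with adjusted p from 0.387 to 0.604. A fit of the control groups alone called 14 of 32 (ADM2, ATF4, ATF5, CARS, CEBPB, CEBPG, CHAC1, DDIT3, INHBE, PPP1R15A, SESN2, STC2, VLDLR and WARS), all higher, against 19.4% of all genes in that fit. That share counts both directions, and 1472 of its 2690 calls among 13888 genes were higher. Without replicate 2 of both PHGDH-siRNA groups 6 were called (ADM2, ATF5, CEBPB, TARS, VLDLR and WARS), against 20.8% of all genes, and without replicate 1 of both 3 were called (ADM2, CEBPB and WARS), against 9.4%. These members were all higher, as were 1616 of the 3023 and 836 of the 1394 calls over all genes.

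Markers moved with Mix as well. Of the 8 keratinocyte markers, 1 lay below 0 in each arm, at -0.64 under PHGDH siRNA and, without overlap, at -0.56 under control siRNA. KRT6A and KRT17, keratins of activated epidermis, rose in both arms. The rise was 1.46 and 1.77 log2 units under PHGDH siRNA and 1.64 and 2.42 under control siRNA (adjusted p from 0.000835 to 0.0130). They were the 2 of 8 called in each arm, where 5.22% and 5.62% of all genes were called up. These calls were also made without the replicate 2 pair of the PHGDH-siRNA groups, whereas without the replicate 1 pair those under PHGDH siRNA were lost (adjusted p = 0.0933 and 0.0785). The fibroblast gene COL3A1, which entered the test only through the groups without Mix, averaged 0.0283 FPKM in PHGDH-siRNA+Mix, 0.641 in PHGDH-siRNA, 0.0242 in Control-siRNA+Mix and 1.03 in Control-siRNA. It was called under control siRNA (-0.99, adjusted p = 0.0120, limma) but not under PHGDH siRNA. The other of the 2 tested fibroblast markers changed by -0.13 under control siRNA and 0.10 under PHGDH siRNA, and was not called. The part of these markers in the Mix changes was not tested.

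**Figure D4:**
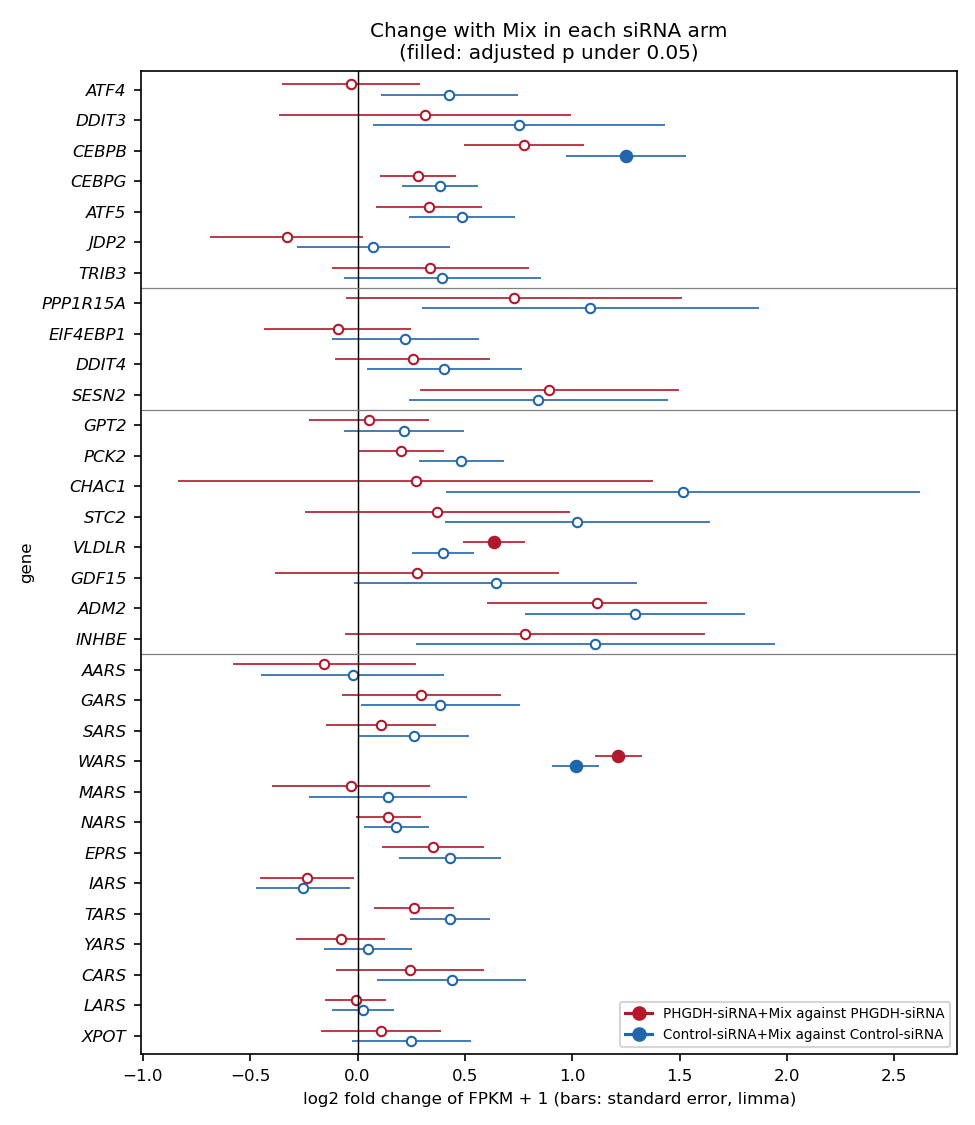
Log2 fold change of FPKM + 1 with Mix for the 32 tested genes (rows), in the PHGDH-siRNA arm (red) and the control-siRNA arm (blue), with limma standard errors as bars. Filled points, with an adjusted p under 0.05, are WARS in both arms, VLDLR in the PHGDH-siRNA arm and CEBPB in the control-siRNA arm, and the bars are widest for CHAC1, INHBE and PPP1R15A, whose PHGDH-siRNA libraries lie far apart.

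Under PHGDH siRNA, Mix called WARS and VLDLR, 2 of 32 (6.25%, background 8.86%, of which 5.22% up). WARS rose to 73.5 ± 7.86 FPKM in PHGDH-siRNA+Mix, against 31.0 ± 1.14 FPKM in PHGDH-siRNA (log2 fold change 1.21, SE 0.11, adjusted p = 7.35e-05), and the call held under all 21 alternatives. VLDLR rose to 0.982 ± 0.374 FPKM in PHGDH-siRNA+Mix, against 0.263 ± 0.0721 FPKM in PHGDH-siRNA, 3.73-fold (0.63, SE 0.14, adjusted p = 0.02). VLDLR entered the test only because of its level with Mix. Its call also held without that filter but was lost under 5 of 21 alternatives, among them leaving out replicate 1 of PHGDH-siRNA+Mix or of PHGDH-siRNA and leaving out the replicate 2 or the replicate 1 pair.

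Over the 32 genes the PHGDH-siRNA arm gave a median log2 fold change of 0.27 with Mix, with 24 of 32 genes above 0, against 0.00 over all genes. WARS and VLDLR were the only genes whose PHGDH-siRNA+Mix libraries all lay above all PHGDH-siRNA libraries (6.25%, background 11.3%), and 0 genes lay wholly below (background 10.3%). Same-numbered libraries of these groups deviated together across all genes (correlations of 0.690, 0.775 and 0.459), and with the replicate number as a block within arms 5 genes were called, all higher (ADM2, CEBPB, SESN2, VLDLR and WARS), against 18.5% of all genes. That share counts both directions, and 1486 of its 2699 calls were higher. Without the replicate 2 pair, ADM2 and WARS were called, against 15.1% of all genes, and without the replicate 1 pair WARS alone, against 3.24%. Over all genes, 1199 of the 2190 and 348 of the 481 calls were higher. WARS was also the only call in a fit of the PHGDH-siRNA groups alone, against 1.81% of all genes (254 calls, 197 of them higher). Leaving out single libraries moved the median to -0.14 without replicate 1 of PHGDH-siRNA+Mix, to 0.00 without replicate 2 of PHGDH-siRNA and to 0.43 without replicate 2 of PHGDH-siRNA+Mix.

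The interaction, which subtracts the Mix change of the control-siRNA arm from that of the PHGDH-siRNA arm, was called for 0 of 32 genes (background 0.0% of genes called), with 0 at an unadjusted p under 0.05 and 0 by voom. It lay below 0 for 28 of 32, with a median of -0.16 against 0.00 over all genes. The lowest value was that of CHAC1, -1.25 with a standard error of 1.56, and the highest that of VLDLR, 0.24 with a standard error of 0.20. With the block within arms, 3 genes reached an unadjusted p under 0.05 (ATF4, CHAC1 and DDIT3) and the lowest adjusted p was 0.471. Leaving out single libraries moved the median to 0.11 without replicate 2 of PHGDH-siRNA+Mix, -0.51 without replicate 1 of that group, 0.02 without replicate 1 of PHGDH-siRNA and -0.45 without replicate 2 of that group. Without the replicate 2 pair it was -0.09 and without the replicate 1 pair -0.29, with 0 called in either.

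**Figure D5:**
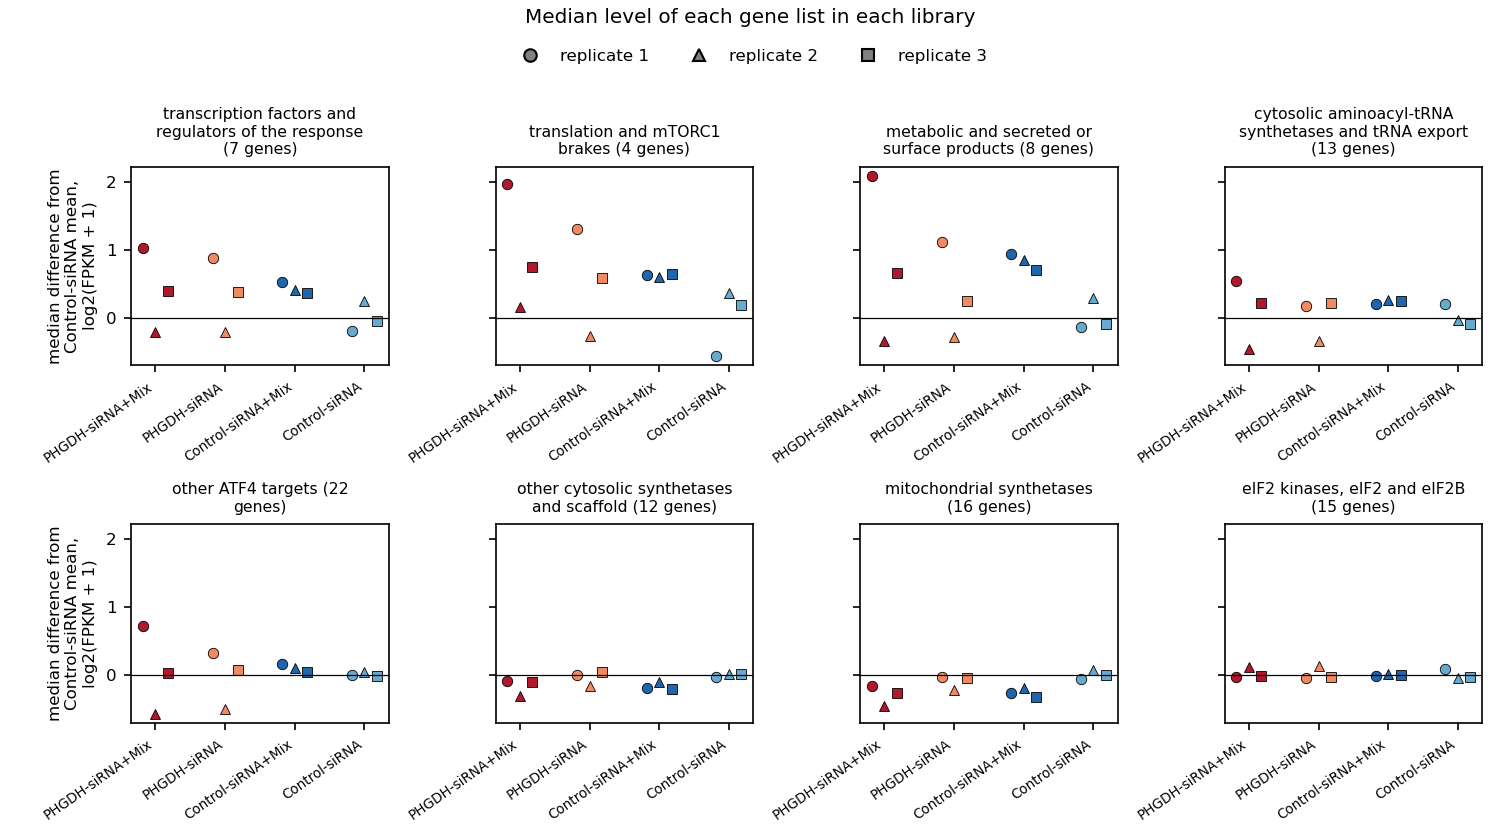
Median difference from the Control-siRNA mean, in log2(FPKM + 1), for 8 gene lists (panels) in each library, with the point shape giving the replicate number. The panel titled brakes holds the genes of translation and mTORC1 control. In the 4 lists described here and in the other ATF4 targets, replicate 1 of PHGDH-siRNA+Mix is highest and replicate 2 of both PHGDH-siRNA groups lies below most other libraries, while the eIF2 machinery stays between -0.04 and 0.13.

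Companion lists show how far the pattern reached. The other known ATF4 targets were 24 genes, of which 22 were tested. They include serine synthesis genes, PHGDH itself among them, and amino acid transport genes. Of the 22, 17 had replicate 2 lowest in both PHGDH-siRNA groups (77.3%, background 33.7% of genes). More than 1 log2 unit lower there in both were 6 of the 22 (27.3%, background 2.24%). Over the 22, the median difference in replicates 1, 2 and 3 was 0.72, -0.56 and 0.04 in PHGDH-siRNA+Mix. In PHGDH-siRNA it was 0.33, -0.50 and 0.08. None of the 22 was called in any comparison. In the siRNA comparisons 2 had an unadjusted p under 0.05 with Mix and 2 without, against 5.72% and 6.41% of all genes. PHGDH, the target of the siRNA, was among the 2 both with and without Mix, which follows from the design. In the Mix comparisons 2 did under PHGDH siRNA and 4 under control siRNA, against 22.0% and 22.1% of all genes. The 15 genes of the eIF2 kinases, eIF2 and its exchange factor eIF2B had replicate 2 lowest in both for 4 (26.7%). The same held for 11 of 16 tested mitochondrial synthetases (68.8%), 11 of 23 genes of amino acid sensing by mTORC1 (47.8%) and 5 of 12 other cytosolic synthetase and scaffold genes (41.7%), and of these only 1 gene, in the last list, was more than 1 log2 unit lower in both. The gene of GCN2, EIF2AK4, averaged 7.82 ± 1.14 FPKM in PHGDH-siRNA+Mix, 7.67 ± 1.5 in PHGDH-siRNA, 7.39 ± 0.463 in Control-siRNA+Mix and 7.85 ± 1.75 in Control-siRNA, and passed no test.

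Among other cytosolic synthetases, TARSL2 and FARSB were called for Mix in both arms. TARSL2, a second threonyl-tRNA synthetase gene, rose to 4.99 ± 1.33 FPKM in PHGDH-siRNA+Mix, against 1.54 ± 0.634 FPKM in PHGDH-siRNA (log2 fold change 1.24, adjusted p = 0.00254), and to 4.16 ± 0.269 FPKM in Control-siRNA+Mix, against 1.09 ± 0.153 FPKM in Control-siRNA (1.31, adjusted p = 0.00155). FARSB, a subunit of the phenylalanine enzyme, fell to 13.9 ± 0.320 FPKM in PHGDH-siRNA+Mix, against 20.6 ± 2.11 FPKM in PHGDH-siRNA (-0.53, adjusted p = 0.0122), and to 16.1 ± 1.04 FPKM in Control-siRNA+Mix, against 23.4 ± 1.79 FPKM in Control-siRNA (-0.51, adjusted p = 0.0135). These were 1 up and 1 down of 12 other cytosolic synthetase and scaffold genes in each arm, against a background of 8.86% of genes called under PHGDH siRNA and 9.54% under control siRNA. The TARSL2 calls were also made without either replicate pair, and that of FARSB under PHGDH siRNA was lost without the replicate 1 pair (adjusted p = 0.0514). Of 16 tested mitochondrial synthetases, EARS2, PARS2 and VARS2 fell with Mix under control siRNA, by 0.73, 0.47 and 0.50 on the log2 scale (adjusted p = 0.0320, 0.0229 and 0.0297), and 14 of the 16 lay below 0. The 3 were also called without either replicate pair. Of all 14577 genes tested, 572 were called down with Mix under control siRNA. Under PHGDH siRNA 0 of the 16 mitochondrial synthetases were called, with 13 below 0. An unadjusted p under 0.05 was found for 4 of the 16, against 22.0% of all genes.

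In the eIF2 list, EIF2AK1, which encodes the heme-regulated eIF2 kinase, fell by 0.46 with Mix under control siRNA (adjusted p = 0.0382), and EIF2S2, the beta subunit of eIF2, rose by 0.45 (adjusted p = 0.0456). They were 1 down and 1 up of 15, against a background of 9.54%. Among 23 tested genes of amino acid sensing by mTORC1, EIF4EBP2, a sister of EIF4EBP1, fell by 0.40 with Mix under control siRNA (adjusted p = 0.0463). RRAGC, a Rag GTPase that recruits mTORC1 to the lysosome, rose by 0.57 with Mix under PHGDH siRNA (adjusted p = 0.0322). Each was 1 of 23, against a background of 9.54% under control siRNA and 8.86% under PHGDH siRNA. By direction, 572 of the 14577 genes tested were called down under control siRNA and 761 up under PHGDH siRNA. The calls of EIF2AK1, EIF2S2 and EIF4EBP2 were also made without the replicate 2 pair and were lost without the replicate 1 pair (adjusted p = 0.0581, 0.0668 and 0.0686), and that of RRAGC was lost without either (0.0765 and 0.101). Whether any of these Mix changes differed between the arms was covered by the interaction, in which none of these lists had a gene called.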

How the data were processed

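Total RNA was extracted with RNAiso Plus, and a NEBNext Ultra kit served for library preparation, per the labels' protocols. Per the submitters' processing notes, the genome build was hg38 and the tools were featureCounts 1.5.0-p3, HISAT2 2.0.5 and CASAVA, with no settings, so strand use and the treatment of reads on overlapping genes are not known. The authors deposited FPKM per gene with 1 column per sample and not log-transformed, and a column of other annotation, the gene length, also deposited by the authors. FPKM times gene length came out as whole reads within 0.05 for 100% of values up to 200 reads. The 12 sample columns were used. The 58735 identifiers were all in GENCODE 29, 58724 with the same coordinates.

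The genes, their 4 role lists, the companion lists and the tests were chosen with earlier results of these data known. All 34 genes are named, with at most 4 called genes of each companion list per comparison, and PHGDH as the siRNA target. A count test had been planned in case of raw counts. Since the table held FPKM, limma 3.58.1 (R 4.3.3, trend and robust options) was fitted to log2(FPKM + 1) of the 14577 genes whose mean reached 0.5 FPKM in any group, with 1 mean per group over all 12 libraries and 8 residual degrees of freedom. P-values are two-sided and Benjamini-Hochberg adjusted over all genes tested, with 0.05 as the threshold. Fold changes on this scale understate changes of low genes. Alternatives were a pseudocount of 0.1, no filter, median ratio scaling, voom on the recovered reads, fits of the compared groups alone, libraries left out singly or in pairs, and the replicate number as a block. The code was tested on simulated data. One of the 6 leukocyte markers is not reported here. Deviations of same-numbered libraries correlated above 0.1 in 5 of 18 library pairs (lowest -0.387, highest 0.775). The labels do not state that replicate numbers pair samples, so the fit as reported took no numbers as pairs, in either arm. Within the PHGDH-siRNA arm all 3 exceeded 0.1, though deviations within a group sum to 0 and so depend on each other. Only in alternatives was the replicate number a block, over all 12 libraries or within both arms. Promoter sequences are from RefSeq (GRCh38.p14), matched by current symbol; NUPR1, GPT2, INHBE, YARS, LARS and EIF4EBP1 had no entry used here.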

Additional observations from a re-analysis of the deposited data

How the results depend on the processing

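The direction of each called change (WARS in both arms, CEBPB under control siRNA, VLDLR under PHGDH siRNA) was the same under all 21 alternatives. Counts of genes called for Mix under PHGDH siRNA, 2 as reported, were 1 in the fit of the compared groups alone, 5 with the replicate block within arms, 1 without the replicate 1 pair of the PHGDH-siRNA groups and 1 to 3 with single libraries left out. For Mix under control siRNA, 2 as reported, they were 1 without the filter, 14 in the fit of the control groups alone, 6 without the replicate 2 pair and 1 to 3 with single libraries left out. The replicate block within arms gave 11 there, although same-numbered control libraries did not deviate together (-0.288, 0.0456 and -0.112). A block over all 12 libraries gave the same 2 and 2. PHGDH siRNA and the interaction had 0 called under every alternative run. The count of 12 genes with replicate 2 far below the mean of replicates 1 and 3 was 12 with a pseudocount of 0.1 and 11 with median ratio scaling. Median ratio scaling moved the median of all genes by at most 0.0028, whereas voom moved it to -0.10 for Mix under PHGDH siRNA, with 643 genes up and 860 down against 761 and 530, and to -0.06 under control siRNA, with 736 up and 788 down against 819 and 572. Over all genes, the calls for Mix under PHGDH siRNA, 1291 as reported, numbered 254 in the fit alone, 761 without the filter, 2190 and 481 without the replicate 2 and the replicate 1 pair, 2699 with the block within arms and as few as 665 with a single library left out. Under control siRNA, 1391 as reported, they numbered 2690 in the fit alone, 3023 without the replicate 2 pair, 2681 with that block and as few as 658 with a single library left out. For PHGDH siRNA they ranged over all alternatives between 0 and 55 with Mix (3 as reported) and between 0 and 101 without (6 as reported), with the highest count in each when the replicate 2 pair was left out. With 3 libraries a group and spans of up to 114-fold within one, the spread between the PHGDH-siRNA libraries limits every siRNA comparison. Counting limits NUPR1, ASNS and VLDLR, and the lowest libraries of INHBE and GDF15, with 9 and 10 reads.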
